A study of Mus musculus with 9 samples.

Results

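Polypyrimidine tract binding proteins are RNA-binding proteins that read pyrimidine-rich stretches of pre-mRNA and mRNA. The 6 genes described here were chosen by name, as the rows of the deposited gene table whose symbol was Ptbp1, Ptbp2, Ptbp3, Raver1, Matr3 or Pkm, and all 6 were found among 17305 genes. All 6 also passed the filter on low counts that left 13059 genes for testing. Livers came from male Balb/c mice, 8 weeks old, that all received carbon tetrachloride (CCl4), a hepatotoxin that causes fibrosis, over 8 weeks. An AAV8 virus was given through the tail vein, at 1e+12 pfu per mouse and 4 weeks after the first CCl4 dose according to the sample labels; the study's methods state an earlier time and a lower dose. The virus carried a negative control (NC + CCl4, n = 3) or one of 2 short hairpin RNAs against the long noncoding RNA lnc-Helf (lnc-Helf-sh1# + CCl4, n = 3; lnc-Helf-sh2# + CCl4, n = 3). The study asked about PTBP1 as a protein partner of lnc-Helf, so the question here was whether the mRNA of PTBP1, its paralogs, its co-regulators and a classic target gene differed after the knockdown. Mice without CCl4 were not analysed here, and the whole liver was sequenced, so fewer cells of a type and less RNA per cell cannot be told apart.

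PTBP1 is expressed widely and represses many alternative exons. It also binds mRNAs in the cytoplasm, where it can alter their stability. PTBP2 is its neuronal paralog, and PTBP3 (also called ROD1) is a further paralog first described in blood cells. RAVER1 is a co-repressor that docks on PTBP1, and matrin-3, the product of Matr3, is a nuclear matrix protein that binds RNA and PTBP1. Pkm encodes the muscle-type pyruvate kinases M1 and M2, which arise from mutually exclusive exons that PTBP1 controls, while hepatocytes mainly use the product of a separate gene, Pklr.

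The family members share an exon of 34 bases whose skipping shifts the reading frame. It is shown here because the inclusion of this exon sets how much productive Ptbp1 and Ptbp2 mRNA is made, and because gene-level counts add transcripts with and without it. Capitals mark bases that differ from the Ptbp1 exon. Transcript sequences are those of GENCODE M21 on GRCm38.
Ptbp1 (exon 9 of a coding transcript, chr10:79862014-79862047, plus strand): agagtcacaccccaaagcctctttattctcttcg
Ptbp2 (exon 10 of a coding transcript, chr3:119724612-119724645, minus strand): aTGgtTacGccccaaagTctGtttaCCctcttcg
Ptbp3 (exon 10 of a coding transcript, chr4:59485339-59485372, minus strand): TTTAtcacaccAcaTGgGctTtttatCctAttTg
The Ptbp2 exon differed from that of Ptbp1 at 8 of 34 bases and the Ptbp3 exon at 12. Pyrimidines made up 22 of the 34 bases in Ptbp1 and Ptbp2 and 23 in Ptbp3. For Ptbp1 and for Ptbp2, 2 annotated transcripts that span the position lacked the exon and were classed as targets of nonsense-mediated decay, whereas all 9 such Ptbp3 transcripts held it. The reverse primer the study lists for mouse Ptbp1 lay over this exon, with 17 of its 21 bases inside it (capitals in CCTCTTTATTCTCTTCGgcgt, the site in the transcript), so that PCR with this primer reads only transcripts that hold this site, while the counts below read all Ptbp1 transcripts. Neither of the 2 decay-classed transcripts without the exon holds the site, but a retained-intron transcript without the whole exon does.

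The mutually exclusive exons of Pkm are of equal length and are shown because the ratio between them, which these counts cannot give, is the usual readout of PTBP1 on Pkm. Capitals mark bases of the M1 exon that differ from the M2 exon.
Pkm M2 (chr9:59675568-59675734, plus strand): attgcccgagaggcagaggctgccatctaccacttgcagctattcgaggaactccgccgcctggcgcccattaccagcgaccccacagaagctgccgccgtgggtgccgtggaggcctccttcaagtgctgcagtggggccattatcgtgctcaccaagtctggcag
Pkm M1 (chr9:59675029-59675195, plus strand): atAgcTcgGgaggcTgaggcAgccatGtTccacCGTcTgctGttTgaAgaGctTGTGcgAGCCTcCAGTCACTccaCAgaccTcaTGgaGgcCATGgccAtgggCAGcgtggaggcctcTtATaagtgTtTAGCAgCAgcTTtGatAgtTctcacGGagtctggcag
The exons differed at 64 bases, an identity of 61.7%. Both are counted in the single row of Pkm.

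The AAV8 hairpins define the groups, and 3 are listed in the study's supplement without a statement of which of them are sh1# and sh2#. Their stems of 19 bases are shown to ask whether they could meet the member mRNAs. Capitals mark the 7 bases that pair with the seed of the antisense arm, bases 2 to 8 of that arm.
Hairpin 1 (chr1:162898147-162898165, minus strand): gacctttcttaCCTCAGAa
Hairpin 2 (chr1:162898034-162898052, minus strand): gctaaccaggaAATGAACt
Hairpin 3 (chr1:162897688-162897706, minus strand): ccgctgtgaacCTCTTTAt
Each stem matched a single annotated transcript exactly, a retained-intron transcript at the Fmo2 locus. The longest coding transcript of each member had at least 5 mismatches to every stem. Other member transcripts were not scanned for near matches. The longest Ptbp3 transcript, of 6855 bases, held 1 seed match to each of the 3 hairpins. Among transcripts of 0.8 to 1.25 times its length, 59.7%, 36.5% and 38.6% held the seed match of hairpins 1, 2 and 3. The longest Pkm, Ptbp2 and Raver1 transcripts held none, that of Matr3 held 1 for hairpin 1, and that of Ptbp1 held 1 for hairpin 3.

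Library totals ran from 14265875 to 16816431 expected counts. Albumin took 6.81 to 12.4% of each, and of 5 neuronal markers 3 were in the table, at a summed 6.37 to 17.7 CPM, while Snap25 and Elavl4 were not. Values are given as TMM-normalised CPM, the read count of a gene scaled to the size of its library, for a gene across libraries, and as TPM, which also divides by transcript length, between genes. A difference was called at a Benjamini-Hochberg adjusted p under 0.05 in edgeR's quasi-likelihood test over all tested genes. By this rule 0% of genes were called in lnc-Helf-sh1# + CCl4 against NC + CCl4 (2336 at an unadjusted p under 0.05), 8.60% in lnc-Helf-sh2# + CCl4 against NC + CCl4 (615 higher and 508 lower), and 0% between the hairpin groups (1365 at an unadjusted p under 0.05). DESeq2 called 2.88%, or 372 genes, in the first comparison, 16.2%, or 2094, in the second, and 63 in the third. In edgeR, 0 genes were called in sh2# once control 1, control 3 or the second sh2# liver (replicate 2) was left out, and 171 to 1658 without each other library, so every edgeR call in sh2# given here depended on each of these 3 libraries; the DESeq2 and limma fits were not repeated without a library. lnc-Helf has no row of its own. The Fmo2 row, whose locus holds the hairpin sites, read 227, 201.8 and 265 CPM in NC + CCl4, 109, 122 and 104 in lnc-Helf-sh1# + CCl4, and 174, 141 and 88.2 in lnc-Helf-sh2# + CCl4. Both hairpin groups lay below the controls for Fmo2, although the row sums all of its transcripts and the edgeR adjusted p was 0.143 for sh1# and 0.0528 for sh2#.

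By TPM, Ptbp1 was the most abundant of the 6 genes in 8 of 9 libraries. Its median over the 9 libraries was 84.1 TPM, against 42.5 for Pkm, 23.8 for Ptbp3, 23.4 for Matr3, 15.6 for Raver1 and 5.11 for Ptbp2. Pkm exceeded Ptbp1 only in NC + CCl4 replicate 1, at 100 against 81.4 TPM. Pkm exceeded Ptbp3 in all 9 libraries, although their ranges overlapped between libraries. Ptbp3 and Matr3 were not separated, with Ptbp3 above Matr3 in 6 of 9 libraries and below it in all 3 of lnc-Helf-sh2# + CCl4. Matr3 lay above Raver1, and Raver1 above Ptbp2, with no overlap of their ranges.

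**Figure D1:**
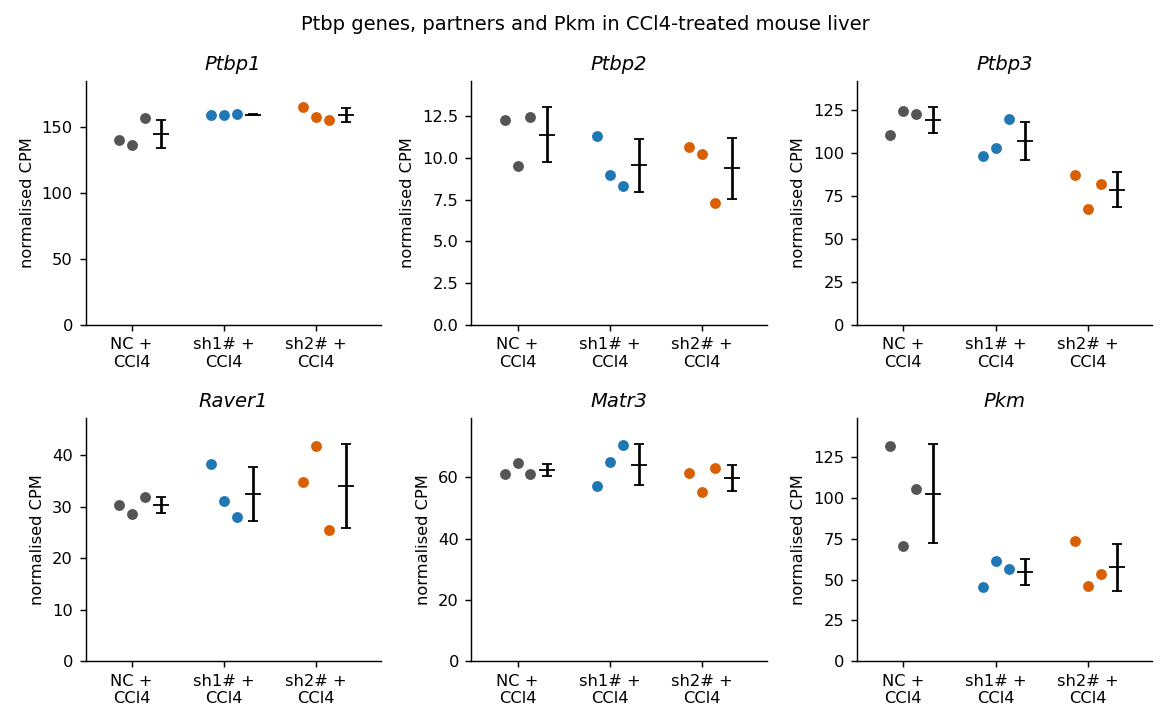
TMM-normalised CPM of the 6 genes in each library (points), with the mean and SD of each group of 3 (bars to the right), on axes that start at 0. Ptbp3 lies at 67.1 to 86.8 CPM in lnc-Helf-sh2# + CCl4, below every other library, whereas the Ptbp1 libraries span only 136 to 165 CPM.

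The gene for PTBP1 (gene 19205, chr10:79854432-79864435) had nearly the same level in every liver. It read 140, 136 and 156 CPM in NC + CCl4, with a mean of 144 ± 10.7 (SD, n = 3). It read 159, 159 and 160 CPM in lnc-Helf-sh1# + CCl4, with a mean of 159 ± 0.590 (SD, n = 3), and 165, 157 and 155 CPM in lnc-Helf-sh2# + CCl4, with a mean of 159 ± 5.15 (SD, n = 3). The 3 sh1# libraries all lay above the controls by a small margin, while the sh2# libraries overlapped them. The log2 fold change was 0.14 in both comparisons with NC + CCl4 (edgeR adjusted p = 0.468 for sh1# and 0.359 for sh2#). The 95% intervals ran from 0.946 to 1.29-fold for sh1# and from 0.945 to 1.29-fold for sh2#. On the TPM scale, where the median of all genes was itself shifted by -0.10 in sh1# and -0.19 in sh2#, the log2 fold change of Ptbp1 was 0.00 in sh1# and -0.09 in sh2#, or 0.10 in both relative to that shift. Ptbp1 had 2236 to 2736 counts a library. Between the hairpin groups the fold change was 0.999, with an interval of 0.856 to 1.17.

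The neuronal paralog Ptbp2 (gene 56195, chr3:119718741-119784647) was low throughout, with 105 to 218 counts a library. It read 12.3, 9.52 and 12.5 CPM in NC + CCl4, 11.3, 9.01 and 8.33 in lnc-Helf-sh1# + CCl4, and 10.7, 10.2 and 7.28 in lnc-Helf-sh2# + CCl4. The groups overlapped in all 3 comparisons. The log2 fold change was -0.26 ± 0.19 (SE) for sh1# and -0.28 ± 0.19 for sh2# against NC + CCl4, with edgeR adjusted p-values of 0.499 and 0.342. The summed neuronal markers that were in the table stood at 14.1 to 15.6 CPM in NC + CCl4, 11 to 17 in sh1# and 6.37 to 17.7 in sh2#, and their part in the Ptbp2 level was not tested.

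Ptbp3 (gene 230257, chr4:59471868-59549378) was the only member called, and only in lnc-Helf-sh2# + CCl4 against NC + CCl4. It read 110, 124 and 122 CPM in NC + CCl4, with a mean of 119 ± 7.49 (SD, n = 3), and 98.2, 103 and 119 CPM in lnc-Helf-sh1# + CCl4, with a mean of 107 ± 11.2 (SD, n = 3). It read 86.8, 67.1 and 81.6 CPM in lnc-Helf-sh2# + CCl4, with a mean of 78.5 ± 10.2 (SD, n = 3). All 3 sh2# libraries lay below all 6 others, while sh1# overlapped the controls. In sh2# the level fell to 66.0% of the control (95% interval 54.2 to 80.4%), a log2 fold change of -0.60 ± 0.13 (SE, edgeR adjusted p = 0.0327; DESeq2 adjusted p = 0.00136).
In sh1# the log2 fold change was -0.16 ± 0.13 (SE, edgeR adjusted p = 0.533). Between the hairpin groups it was -0.44 ± 0.13 with sh2# lower (edgeR adjusted p = 0.440), so the call in sh2# alone does not show that the hairpins differ. The 1 call among 6 members stood against a background of 8.60% of all tested genes. Non-overlap was also common, at 32.9% of genes in this comparison, 28.5% in sh1# against NC + CCl4 and 14.2% between the hairpin groups, and it was found for 1, 2 and 1 of the 6 members. The call was close to the threshold. It was lost when any control library was left out (adjusted p = 0.0745, 0.0755 and 0.107 without NC + CCl4 replicates 1, 2 and 3). It was also lost without sh1# replicate 2 (0.0589) and without sh2# replicates 2 and 3 (0.0946 and 0.0567), although the log2 fold change stayed between -0.65 and -0.51 in these fits.

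Log2 fold changes varied with transcript length over all tested genes, and Ptbp3 was in the class with the longest transcripts. The effective length implied by the deposited counts and FPKM was 6700 bases for Ptbp3, longer than 93% of tested genes, against 2222 to 4306 bases for the other members. With all tested genes split by length into 5 classes of equal size, the median log2 fold change in sh2# against NC + CCl4 went from 0.27 in the class with the shortest transcripts to -0.21 in the class with the longest, and in sh1# from 0.13 to -0.10. In the longest class 8.31% of genes were called lower in sh2#, and 17.2% had a fold change below that of Ptbp3. With a length trend fitted for each library as an offset, an alternative chosen after seeing the data, the log2 fold change of Ptbp3 in sh2# was -0.37 and the edgeR adjusted p 0.0788. Pkm, at 2222 bases, had -0.87 with the offset and -0.83 without it. The cause of the length trend was not tested.

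**Figure D2:**
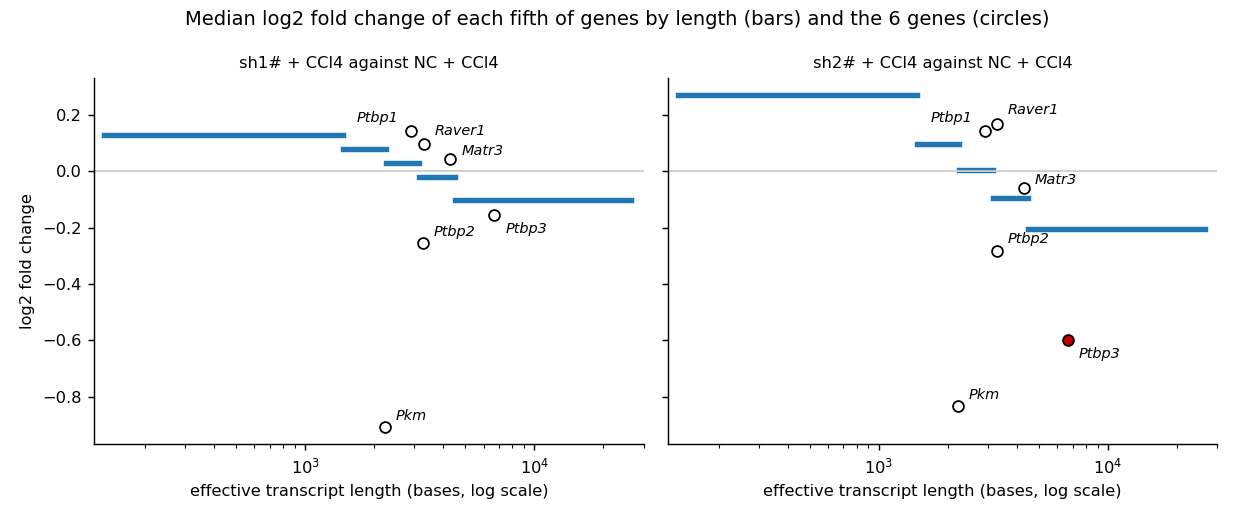
Log2 fold change of the 6 genes (circles, filled where the edgeR adjusted p is under 0.05) against effective transcript length in bases on a log axis, with the median of all tested genes in each of 5 length classes of equal size as a bar over its length range. The bars step down from 0.27 to -0.21 in sh2# against NC + CCl4, and Ptbp3 sits below the bar of the longest class.

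Within the family, Ptbp1 supplied 68.7 to 71.0% of the summed Ptbp1, Ptbp2 and Ptbp3 TPM in NC + CCl4, 73.0 to 75.2% in lnc-Helf-sh1# + CCl4 and 77.8 to 80.5% in lnc-Helf-sh2# + CCl4. Ptbp3 supplied 24.0, 27 and 24.1% in NC + CCl4, 20.1, 21.1 and 23.6% in sh1#, and 17.8, 14.9 and 18.1% in sh2#. The 3 groups did not overlap for either share. Each library held 2.54 to 2.95 times as much Ptbp1 as Ptbp3 by TPM in NC + CCl4, 3.09 to 3.74 times in sh1# and 4.34 to 5.40 times in sh2#. These ratios carry the length difference between the genes, and no test was made on them.

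The co-repressor gene Raver1 (gene 71766, chr9:21074158-21091999) did not pass the test in any comparison. It read 30.4, 28.7 and 31.9 CPM in NC + CCl4, 38.3, 31.1 and 28 in lnc-Helf-sh1# + CCl4, and 34.9, 41.8 and 25.6 in lnc-Helf-sh2# + CCl4. The spread was wider in sh2# (SD 8.14) than in the controls (SD 1.60), and the groups overlapped. The log2 fold change was 0.10 ± 0.18 (SE) in sh1# and 0.17 ± 0.18 in sh2#, with edgeR adjusted p-values of 0.796 and 0.536, and it was -0.06 and -0.08 on the TPM scale, or 0.04 and 0.10 relative to the median of all genes. Nearly all 50-base windows of Raver1 transcripts, 99.7%, also occur in transcripts of Gm38431 or 1700084C06Rik in GENCODE. Neither gene has a row in the deposited table, so their reads could fall in the Raver1 row. The share of windows found in other genes was 24.2% for Ptbp1, 24.5% for Matr3, 23.7% for Pkm, 2.04% for Ptbp3 and 0% for Ptbp2. Of these, 101 Ptbp1 windows lay in Plppr3, which has a row of its own, and 121 Matr3 windows in 122 genes with rows. Windows were matched on either strand.

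Its paralog Raver2 was much lower and varied widely within NC + CCl4 and sh1#. It read 3.93, 5.32 and 0.80 CPM in NC + CCl4, 0.627, 0.247 and 7.78 in lnc-Helf-sh1# + CCl4, and 0.346, 0.193 and 0.347 in lnc-Helf-sh2# + CCl4. Controls 1 and 2 and sh1# replicate 3 stood apart from the other 6 libraries, and all 3 sh2# libraries lay below every control. The log2 fold change in sh2# was -3.48 ± 1.26 (SE), with adjusted p-values of 0.0988 in edgeR and 0.0426 in DESeq2, on 3.01 to 5.01 counts in each sh2# library.

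Matr3 (gene 17184, on chromosome 18) was, with Ptbp1, the steadiest of the 6 genes, with a coefficient of variation of 7.23% over the 9 libraries against 6.19% for Ptbp1. It read 61.2, 64.5 and 61.0 CPM in NC + CCl4, 57.1, 65.0 and 70.5 in lnc-Helf-sh1# + CCl4, and 61.3, 55.2 and 63.0 in lnc-Helf-sh2# + CCl4. The groups overlapped. The fold change was 1.03 (95% interval 0.875 to 1.21) in sh1# and 0.961 (0.816 to 1.13) in sh2#, with edgeR adjusted p-values of 0.858 and 0.738. On the TPM scale its log2 fold change was -0.10 in sh1# and -0.28 in sh2#, or -0.00 and -0.09 relative to the median of all genes. The direction in sh2# turned with the length offset, to 0.08.

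Pkm (gene 18746, chr9:59656576-59679372) had the largest fold changes of the 6 genes against NC + CCl4, with a wide spread among the controls, whereas between the hairpin groups Ptbp3 had the largest. It read 131, 70.7 and 105 CPM in NC + CCl4, with a mean of 102 ± 30.4 (SD, n = 3). It read 45.7, 61.5 and 56.5 CPM in lnc-Helf-sh1# + CCl4, with a mean of 54.6 ± 8.06 (SD, n = 3), and 73.5, 46 and 53.1 CPM in lnc-Helf-sh2# + CCl4, with a mean of 57.5 ± 14.3 (SD, n = 3). All sh1# libraries lay below the controls, while sh2# replicate 1 lay above control 2. The level was 53.3% of the control in sh1# (95% interval 36.9 to 76.9%) and 56.2% in sh2# (38.9 to 81.1%). The edgeR adjusted p was 0.160 for sh1#, where no gene passed, and 0.0552 for sh2#. DESeq2 called Pkm in both comparisons (adjusted p = 0.0178 and 0.0120), making it the only member of 6 called in sh1# and the second in sh2# beside Ptbp3, against DESeq2 backgrounds of 2.88% and 16.2%. On log2(TPM + 1), limma called Pkm in sh2# (adjusted p = 0.0366). Its log2 fold change there was -0.99, or -0.80 relative to the median of all genes, and the test used the former. The share of all genes that limma called is not given here, so this call has no background beside it. In edgeR, Pkm passed in sh2# without control 2 (adjusted p = 0.0423) or without sh2# replicate 1 (0.0281). The hairpin groups did not differ detectably for Pkm, with a fold change of 1.05 and an interval of 0.730 to 1.52.

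**Figure D3:**
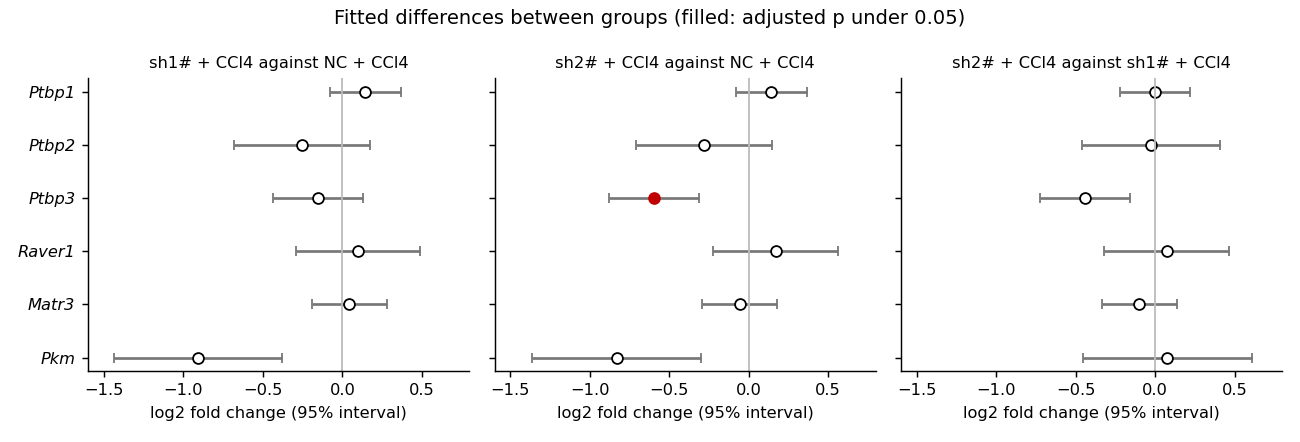
Log2 fold change from edgeR with its 95% interval for the 6 genes in the 3 comparisons, filled where the adjusted p is under 0.05. Only Ptbp3 in lnc-Helf-sh2# + CCl4 against NC + CCl4 is filled, and Pkm lies furthest to the left in both comparisons with NC + CCl4, at -0.91 and -0.83.

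Markers of leukocytes, which use the M2 product of Pkm, were also lower in both hairpin groups as a sum, although the sh1# and control sums overlapped. The summed level of the 10 leukocyte markers was 1056 to 1779 CPM in NC + CCl4, 536 to 1078 in lnc-Helf-sh1# + CCl4 and 548 to 615 in lnc-Helf-sh2# + CCl4. All 10 had a negative fold change in both comparisons, and 5 of 10 were called lower in sh2#, against 3.89% of all tested genes. Of the 8 markers of stellate cells and fibroblasts, 7 were negative in both comparisons and 2 were called lower in sh2#. All 5 endothelial markers were negative in both, with 0 called, while 0 of 6 hepatocyte markers and 0 of 5 markers of cycling cells were negative. Within the controls the leukocyte sum and Pkm had the same order, with control 1 highest and control 2 lowest in both. Within the hairpin groups they did not. In sh2#, replicate 1 had the highest Pkm value and the lowest leukocyte sum and replicate 2 the reverse, and in sh1# the highest sum was in replicate 3 and the highest Pkm value in replicate 2. The summed level of the 6 cholangiocyte markers was 424, 269 and 365 CPM in NC + CCl4, 430, 455 and 182 in sh1#, and 1251, 386 and 398 in sh2#. It had the same order as Pkm in NC + CCl4 and in sh2#, and the same highest library in all 3 groups. The summed neuronal markers, at only 6.37 to 17.7 CPM, had the order of Pkm in all 3 groups. The endothelial sum had it in sh2# only, and the sum of erythroid markers in NC + CCl4 only. A shared order within a group thus does not single out a cell type. Of the 5 cholangiocyte markers tested, 3 had a negative fold change in each comparison with NC + CCl4, and 0 were called. The sum of 1251 CPM, far above the other libraries, was that of sh2# replicate 1, the library without which Pkm passed in sh2#. The summed level of the stellate cell and fibroblast markers was 606 to 988 CPM in NC + CCl4, 377 to 644 in sh1# and 443 to 782 in sh2#. The sums of the 6 hepatocyte markers overlapped between all groups, at 90952 to 155386 CPM over all libraries. The part of these cell types in the Pkm, Ptbp3 and list values was not tested.

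The liver-type gene Pklr read 108, 131 and 106 CPM in NC + CCl4, 231, 226 and 169 in lnc-Helf-sh1# + CCl4, and 99.5, 89.3 and 302 in lnc-Helf-sh2# + CCl4. All sh1# libraries exceeded the controls, and sh2# held both the lowest values and the highest. The ratio of Pkm to Pklr by TPM was 1.37, 0.599 and 1.11 in NC + CCl4, 0.227, 0.302 and 0.369 in sh1#, and 0.850, 0.607 and 0.199 in sh2#. The log2 ratio was lower by 1.72 in sh1# than in NC + CCl4 (difference -1.72, exact two-sided permutation p = 0.1, the smallest p that 3 against 3 can give). In sh2# the difference was -1.05 (exact permutation p = 0.3), and sh2# replicate 3 alone lay below all controls. Between the hairpin groups it was 0.67 (exact permutation p = 0.4). Without sh2# replicate 3 the difference of sh2# from NC + CCl4 was -0.43.

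**Figure D4:**
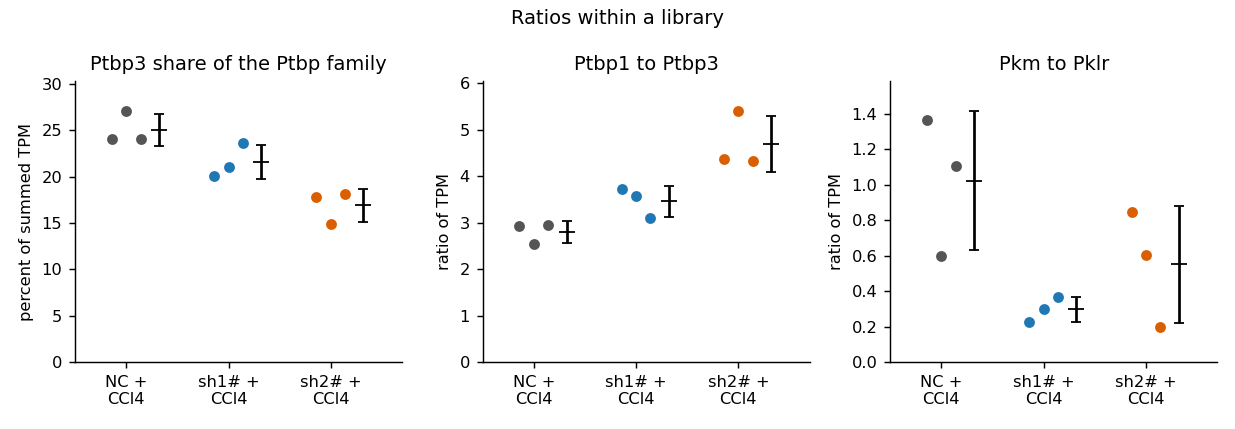
Ratios within each library (points) with the mean and SD of each group of 3, as the share of Ptbp3 in the summed TPM of Ptbp1, Ptbp2 and Ptbp3, the ratio of Ptbp1 to Ptbp3 and the ratio of Pkm to Pklr, all on axes that start at 0. The Ptbp3 share steps down over the groups without overlap, from 24.0 to 27% in NC + CCl4 to 14.9 to 18.1% in lnc-Helf-sh2# + CCl4, while the Pkm to Pklr ratio spreads from 0.199 to 0.850 in lnc-Helf-sh2# + CCl4.

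Other splicing regulators gave the surroundings of the family. Of 47 listed RNA-binding protein genes, all tested, 6 were called higher and 2 lower in lnc-Helf-sh2# + CCl4 against NC + CCl4, or 17% against 8.60% of all genes, and 0 were called in lnc-Helf-sh1# + CCl4 or between the hairpin groups. The median log2 fold change of the list was 0.11 in sh2# and 0.10 in sh1#, against 0.00 and 0.02 over all genes. This list and those in the next paragraphs were chosen with earlier results of these data known. Their shares beside that of all genes therefore describe the lists and are not a test of them. U2af1, which encodes the subunit of U2AF that reads the 3′ splice site AG, rose in sh2# by 0.79 ± 0.15 (log2, SE, edgeR adjusted p = 0.0268). Hnrnpab, for a heterogeneous nuclear ribonucleoprotein, rose by 0.59 ± 0.12 (0.0280), and Pcbp1, for a poly(C)-binding protein, by 0.52 ± 0.11 (0.0333). Celf2, which encodes a splicing regulator abundant in lymphocytes and neurons, had the smallest p of the list in both comparisons. It read 15.1, 13.8 and 17 CPM in NC + CCl4, 8.02, 11.1 and 11 in sh1#, and 7.55, 8.42 and 8.46 in sh2#, with both hairpin groups below the controls. Its log2 fold change was -0.91 ± 0.16 in sh2# (edgeR adjusted p = 0.0219) and -0.60 ± 0.16 in sh1# (0.159). The other calls in sh2# were Srsf3, Elavl1 and Srsf1, which rose by 0.67, 0.40 and 0.40, and Mbnl2, which fell by 0.41. The 6 genes called higher had effective lengths of 744 to 5872 bases and the 2 called lower 4336 and 7929 bases. The count of 8 was 1 without sh1# replicate 2, 2 without sh2# replicate 3, and 4 and 5 without control 2 and without sh1# replicate 1. The number called among all genes also varied widely between fits that left out a library. Rbm10 had the smallest p between the hairpin groups, at a log2 fold change of 0.35 (edgeR adjusted p = 0.441).

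Of 27 glycolysis genes, all tested, 2 were called higher and 2 lower in sh2# against NC + CCl4 (14.8% against 8.60% of all genes) and 0 in the other comparisons. Gapdh and Tpi1, enzymes that act in most tissues, rose by 0.63 ± 0.17 and 0.51 ± 0.13 on the log2 scale (edgeR adjusted p = 0.0481 and 0.0468). Slc2a1, the glucose transporter GLUT1, fell by 0.66 ± 0.16 (0.0416), and Hk2, an inducible hexokinase that normal hepatocytes express little of, by 1.15 ± 0.29 (0.0437). Hk2 read 4.75, 4.31 and 4.51 CPM in NC + CCl4, 1.82, 1.73 and 2.33 in sh1#, and 2.35, 2.57 and 1.18 in sh2#, so both hairpin groups lay below the controls. Its log2 fold change in sh1# was -1.21 (edgeR adjusted p = 0.145). Eno2, the neuronal-type enolase, had the smallest p in sh1#, at -2.00 ± 0.39 (edgeR adjusted p = 0.124). The count of 4 was kept only without sh1# replicate 3, was 7 without sh2# replicate 1 and was 0 without any other library. Here too the number called among all genes varied. With the length offset, 0 glycolysis genes and 8 RNA-binding protein genes were called in sh2#.

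**Figure D5:**
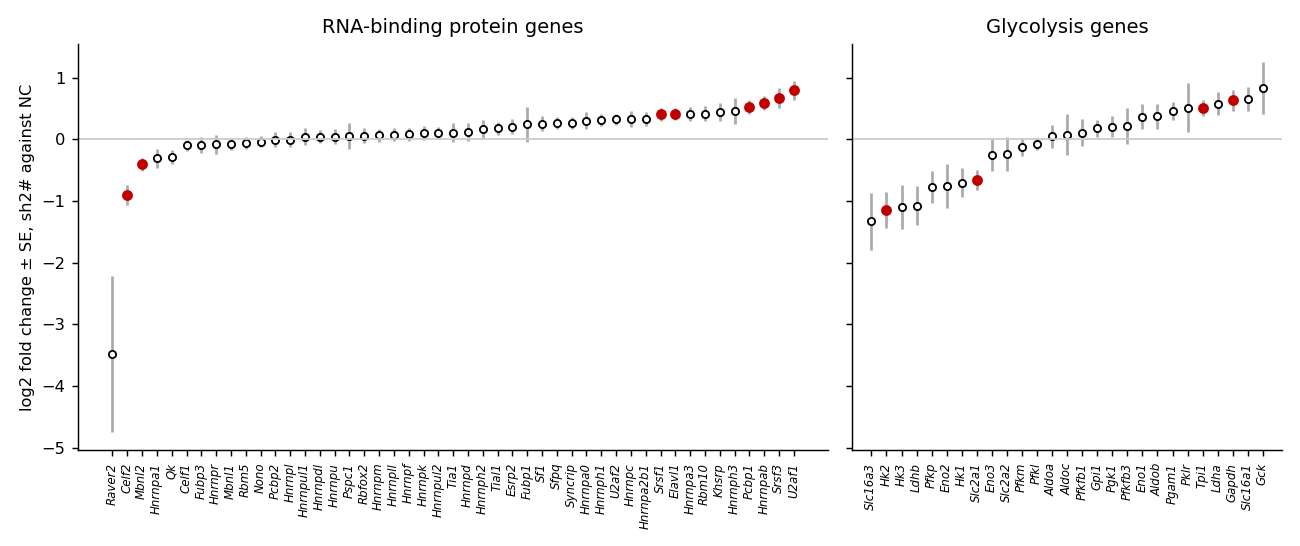
Log2 fold change with its SE from edgeR in lnc-Helf-sh2# + CCl4 against NC + CCl4 for the listed RNA-binding protein genes (left, 47) and glycolysis genes (right, 27), in rising order and filled where the adjusted p is under 0.05. The filled points run from -0.91 (Celf2) to 0.79 (U2af1) on the left and from -1.15 (Hk2) to 0.63 (Gapdh) on the right, and Raver2 lies lowest with an SE of 1.26.

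Of 10 genes listed for an exon that PTBP1 regulates, 9 were in the table and tested. The 1 called in sh2#, or 11.1% against 8.60% of all genes, was Flna, which encodes the actin cross-linker filamin A. Its effective length was 8018 bases, in the longest class of genes, and it fell by 1.29 ± 0.25 on the log2 scale (edgeR adjusted p = 0.0268). In sh1# its log2 fold change was -1.07 ± 0.25 (edgeR adjusted p = 0.143). Pik3r5, a regulatory subunit of phosphoinositide 3-kinase gamma and an mRNA that the study examined with PTBP1, read 16.7, 9.35 and 11.9 CPM in NC + CCl4, 3.39, 3.89 and 8.15 in sh1#, and 4.92, 4.05 and 2.7 in sh2#. Both hairpin groups lay below the controls. It fell in sh2# by 1.70 ± 0.36 (edgeR adjusted p = 0.0338) and had a log2 fold change of -1.30 ± 0.36 in sh1# (0.167). Ptbp1 stood 1.10-fold from the control in the same livers in both comparisons. All 10 leukocyte markers also had negative fold changes in both, and the part of leukocytes in the Pik3r5 value was not tested. Gene-level counts do not show exon choice, and they cannot tell a change in mRNA decay from a change in mRNA synthesis.

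The genes whose log2 CPM followed Ptbp3, Ptbp1 and Pkm most closely over the 9 libraries were sought among 10464 named genes. For Ptbp3 they were Elk4 (Pearson r = 0.992), Washc5 (0.986) and Ncoa2 (0.980), with effective lengths of 4058, 3846 and 7992 bases. For Ptbp1 they were Aste1 (0.972), Klhl18 (0.941) and Syncrip (0.926), the last for an hnRNP-like RNA-binding protein. For Pkm they were Ctsa (0.968), which encodes the lysosomal protective protein cathepsin A, Anxa1 (0.963), which encodes annexin A1, abundant in myeloid cells, and Cdk14 (0.960). These correlations share the libraries and groups, were taken as the highest of many, and describe these 9 livers only.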

How the data were processed

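Liver RNA was sequenced on a BGIseq500 as single-end reads of 50 bases. BWA, Bowtie2 and RSEM are listed in the submitters' processing notes with no version or role, and hg19 is listed as the build although the genes are those of mouse. The authors deposited RSEM expected counts, TPM and FPKM per gene for 9 libraries. The expected counts (8.15% not whole) were rounded and tested in edgeR 4.0.16 (R 4.3.3) with TMM factors, a minimum count of 10 in its expression filter and all 9 libraries in 1 quasi-likelihood fit; p-values were adjusted over all 13059 genes. The deposited FPKM values served only to derive effective lengths and a ratio alternative, and the deposited TPM for levels and ratios. DESeq2 1.42.0 and limma 3.58.1 were alternatives. Scripts were tested on simulated data. Library totals were 14265875 to 16816431. The labels call these biological replicates. Replicate libraries differed by far more than sampling noise. Symbols turned to dates (22) were restored by gene number.

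The 6 genes and the lists were chosen with earlier results of these data known. Named genes were the 6, Raver2, Pklr, Pik3r5, Fmo2, up to 4 genes of each list and comparison with the smallest adjusted p under 0.05 (or the 1 smallest p), and 3 genes most correlated with Ptbp1, Ptbp3 and Pkm at a mean of at least 50 counts. Srsf3, Elavl1, Srsf1 and Mbnl2 were named after their values were seen. Positions of genes are from RefSeq on GRCm38.p6, and sequences from GENCODE M21 and the study's oligo list. Protein sequences were not used here.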

Additional observations from a re-analysis of the deposited data

How the results depend on the processing

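Ptbp3 in lnc-Helf-sh2# + CCl4 against NC + CCl4 kept its direction under all 21 alternatives (log2 fold change -0.83 to -0.37) and passed adjusted p under 0.05 in 13 of them (0.00136 to 0.107). The 13 include the alternative with a fold above 2, which keeps the adjusted p of the main fit and under which Ptbp3 was not called. Pkm kept its direction in both comparisons with NC + CCl4, at -1.11 to -0.69 for sh1# and -1.07 to -0.61 for sh2#, and passed in 1 and 5 of 21. The limma values in these ranges are not corrected for the shift of all genes on the TPM scale. Relative to the median of all genes on log2(TPM + 1), Ptbp3 in sh2# was -0.61 and Pkm -0.80. Of the 6 genes, 1 (sh1#) and 2 (sh2#) were called by DESeq2. In sh2#, 2 were called by limma on log2(TPM + 1) and on log2(TPM + 0.1) with the filter. The share of all genes called by limma is not given, so these 2 cannot be read as a result about the members. In sh2#, 0 were called with a fold above 2, with the replicate block or with the length offset. Leaving out a library gave 0 to 2.

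DESeq2 called 372, 2094 and 63 genes in the 3 comparisons, 1 and 13 of 47 RNA-binding genes in sh1# and sh2#, and 5 and 11 of 27 glycolysis genes. Its share over all genes was 2.88% in sh1# and 16.2% in sh2#. With only the groups compared the counts were 1 gene in sh1#, and 500 genes, 4 RNA-binding and 0 glycolysis genes in sh2#. In sh2# a fold above 2 left 289 genes, 0 RNA-binding and 1 glycolysis gene; no count filter left 5 RNA-binding and 2 glycolysis genes; upper-quartile factors left 2 glycolysis genes; limma left 4 RNA-binding genes with either pseudocount and, unfiltered, 3 with 2 glycolysis genes; and the length offset, chosen after seeing the data, left 396 genes and 0 glycolysis genes. Without 1 library each, 0 to 1658 genes, 0 to 9 RNA-binding and 0 to 7 glycolysis genes were called in sh2#, 0 to 3 genes in sh1# and 0 to 1 between the hairpins. The cause of these shifts was not tested. Where the count over all genes is not given, a change in a list cannot be told from a change in all genes.

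The replicate numbers did not pair the samples (correlations of deviations -0.42 to 0.22), and with the replicate block 0 genes, 0 RNA-binding and 0 glycolysis genes were called in sh2#, where Ptbp3 had -0.60 (edgeR adjusted p = 0.0658).

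Sign changed only in values near 0 that passed no threshold. Between the hairpins Ptbp1 was 0.0101 in DESeq2, 0.0129 with median-ratio and 0.0199 with upper-quartile factors, 0.00431 with CPM of at least 1 in 3 libraries and 0.0409 with the length offset, and -0.0285 to 0.0194 without 1 library. Matr3 in sh1# was -0.00046 with upper-quartile factors, -0.103 and -0.107 in limma at pseudocounts of 1 and 0.1, and -0.0258 to 0.10 without 1 library; in sh2# it was 0.0765 with the length offset. In limma at the pseudocounts of 1 (with or without the filter) and 0.1, Ptbp1 was -0.0907 and -0.0917 in sh2#, and Raver1 -0.0553 and -0.0588 in sh1#, -0.0829 and -0.0901 in sh2#, and -0.0277 and -0.0313 between the hairpins. The median of all genes was itself at -0.10, -0.19 and -0.07 in these comparisons at a pseudocount of 1 with the filter, and relative to it Ptbp1 in sh2# was 0.10 and Raver1 0.04, 0.10 and 0.04, so neither turned. Ptbp2 between the hairpins was 0.0265 with the length offset and -0.127 to 0.13 without 1 library. Without 1 library Raver1 ran from -0.058 to 0.198 in sh1#, -0.0159 to 0.322 in sh2# and -0.0952 to 0.242 between the hairpins, and Pkm from -0.139 to 0.222 between the hairpins. The log2 ratio of Pkm to Pklr kept its direction in every alternative (-2.07 to -1.47 in sh1#, -1.48 to -0.43 in sh2# and 0.24 to 1.29 between the hairpins).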

Other observations

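Raver2 shared its pattern over libraries with other genes, a description made after its values were seen. Of 13059 tested genes, 67 were at least 2-fold higher in each of NC + CCl4 replicates 1 and 2 and lnc-Helf-sh1# + CCl4 replicate 3 than in each of the other 6 libraries, and 0 were at least 2-fold lower. Among them, Ubd, which encodes an inducible ubiquitin-like modifier, was at 139 CPM or more in these 3 libraries and at 9.83 CPM or less in the others. Serpina12 was at 17.6 CPM or more against 1.5 or less, and Dio1, which encodes the type 1 thyroid hormone deiodinase, at 20.9 or more against 2.53 or less. The 67 genes also held Cybb, at 173 CPM or more against 52.3 or less. Chemokine genes were among them as well, such as Cxcl9, at 53.6 or more against 19.8 or less. The cause of this pattern was not tested. None of the 6 genes described above shared it.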
